A study of Mus musculus with 24 samples.

Results

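Ctse, Lrtm1, Scara5 and Cebpe were singled out among 24339 genes measured in mouse liver because their RNA differed between hCAR-TG and wild type mice given corn oil at day 60, although none of them belongs to drug metabolism. The members are the entries that carry these 4 symbols, and each symbol had a single entry. All 4 were among the 12282 genes with at least 1 FPKM (fragments scaled by transcript length and library size) in at least 3 libraries. Scara5 reached 1 FPKM in only 7 libraries, the 6 hCAR-TG libraries of day 60 and 1 wild type library of that age, so its presence among the tested genes already depends on the group where it is high. The question put to the data was whether the difference seen under corn oil in adults also held at day 5 and under a ligand. For the 4 genes the corn oil contrast at day 60 is therefore given here as a description, without a test, and so is every comparison of theirs that uses those 6 libraries. Calls of other genes in that contrast come from the same fit.

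Liver RNA from C57BL/6 mice had been sequenced in 24 libraries that form 8 groups of 3 replicates. The groups were wild type mice given corn oil or TCPOBOP, and hCAR-TG mice, which carry a knocked-in human CAR, given corn oil or CITCO, each at postnatal day 5 and day 60. TCPOBOP activates mouse CAR and CITCO activates human CAR, so in the ligand groups genotype and compound changed together and cannot be told apart. The sources used here give no dose, no design of the knock-in allele and no breeding of the hCAR-TG line against its controls. Nor do they state that the replicates of a group are different animals, and the p-values measure only the spread between these samples.

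CAR, the product of Nr1i3, is a nuclear receptor of hepatocytes that is best known for switching on P450 and conjugation genes when foreign compounds reach the liver. The 4 genes described here lie outside that programme. Ctse encodes cathepsin E, an intracellular aspartic protease known from gastric mucosa, red cell precursors and immune cells. Scara5 encodes a class A scavenger receptor that binds ferritin and is known from epithelial and stromal cells. Lrtm1 encodes a transmembrane protein with leucine-rich repeats whose role in liver is poorly known, and Cebpe encodes C/EBP epsilon, the transcription factor that drives the late steps of granulocyte maturation. Liver makes blood cells before and shortly after birth.

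The FPKM of a library summed to 451546 to 502499, and its depth in reads is unknown. Summed FPKM of 5 hepatocyte markers was 21542 to 76117, which placed all 24 libraries as liver. Nr1i3 itself, counted as the mouse gene, was at 6.94 to 11.9 FPKM in the 6 hCAR-TG libraries of day 60 and at 19.3 to 76.9 FPKM in the 6 wild type libraries of that age. Under corn oil at day 5 it was at 18.7 to 27.7 FPKM against 43.8 to 68.6 FPKM, whereas under ligand at day 5 the hCAR-TG libraries were the higher ones, at 28.6 to 34.0 FPKM against 13.5 to 17.9 FPKM. Whether transcripts of the human gene contribute to these values is not given in the sources used here. Of the day 5 libraries, 3 held over 300 FPKM of pancreas transcripts and 1 held 248 FPKM of intestine transcripts.

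Ctse separated the genotypes in every setting. In corn oil livers of day 60 the 3 wild type libraries had 0.0948, 0.0249 and 0.0612 FPKM and the 3 hCAR-TG libraries had 13.7, 13.8 and 12.8 FPKM, the contrast on which the gene was picked. The means were 0.0603 ± 0.0349 and 13.4 ± 0.581 FPKM (SD, n = 3), a ratio of 223 that rests on wild type values near 0. In whole liver RNA a smaller number of cells of a type and less RNA per cell cannot be told apart, here or for the other genes.

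At day 5 under corn oil, Ctse was at 1.18, 2.37 and 3.02 FPKM in wild type livers and at 22.0, 23.7 and 25.1 FPKM in hCAR-TG livers. The groups lay far apart, with means of 2.19 ± 0.933 and 23.6 ± 1.57 FPKM (SD, n = 3), a 10.8-fold difference. On the log2(FPKM + 1) scale used for all tests the difference was 2.99 ± 0.16 (SE; limma adjusted p = 3.26e-10, all 3 hCAR-TG libraries above all 3 wild type libraries).

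Under ligand at day 60, Ctse was at 0.0928, 0.239 and 0.246 FPKM in wild type livers and at 21.0, 16.7 and 12.6 FPKM in hCAR-TG livers. The hCAR-TG libraries were more spread out than under corn oil and still did not overlap the wild type ones. The difference was 3.87 ± 0.16 (SE; limma adjusted p = 2.46e-13), and the means stood in a ratio of 87.2. Under ligand at day 5 the wild type libraries had 3.79, 3.68 and 3.02 FPKM and the hCAR-TG libraries had 22.6, 20.8 and 20.5 FPKM. That difference was 2.31 ± 0.16 (SE; limma adjusted p = 1.17e-09), 6.08-fold by the means, again without overlap. The intervals deposited with the FPKM values did not overlap between the genotypes in any of the 4 settings.

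Lrtm1 was also higher in hCAR-TG livers in every setting, by smaller factors. Under corn oil at day 60, the contrast used for selection, wild type libraries had 0.416, 0.618 and 0.673 FPKM and hCAR-TG libraries had 5.30, 5.59 and 5.05 FPKM. The means of 0.569 ± 0.135 and 5.31 ± 0.268 FPKM (SD, n = 3) differed 9.34-fold. At day 5 under corn oil the values were 0.299, 0.458 and 0.738 FPKM in wild type and 2.12, 2.99 and 1.03 FPKM in hCAR-TG livers. The third hCAR-TG library was the lowest of its group and remained above all wild type libraries. The difference was 0.98 ± 0.19 (SE; limma adjusted p = 0.00144), and it no longer passed the threshold when only the 6 compared libraries were fitted, at the same 0.98.

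Under ligand the genotypes were again apart in Lrtm1 at both ages. At day 60 the wild type libraries had 1.31, 1.47 and 2.06 FPKM and the hCAR-TG libraries had 3.42, 5.26 and 6.00 FPKM, a difference of 1.16 ± 0.19 (SE; limma adjusted p = 3.79e-05). At day 5 they had 1.68, 1.61 and 1.68 FPKM against 3.97, 3.27 and 3.82 FPKM, a difference of 0.81 ± 0.19 (SE; limma adjusted p = 0.00169). Neither pair of groups overlapped, and the means differed 3.03-fold and 2.22-fold.

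Lrtm1 was the only one of the 4 genes with an entry in the RefSeq promoter table used here, and its upstream sequence is shown because the gene was called higher in hCAR-TG livers in each setting that the choice did not use. The 250 bases before its start lie on the plus strand at chr14:29017958-29018207 (GRCm38.p6, the assembly behind mm10), with a GC content of 49.2%.
Lrtm1 upstream: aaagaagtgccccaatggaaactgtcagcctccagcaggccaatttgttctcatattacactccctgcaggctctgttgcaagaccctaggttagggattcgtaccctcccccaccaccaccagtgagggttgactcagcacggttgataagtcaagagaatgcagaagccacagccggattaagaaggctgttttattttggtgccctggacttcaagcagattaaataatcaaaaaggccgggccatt
The nuclear receptor core motifs AGGTCA and AGTTCA and the C/EBP motif TTGCGCAA were searched on both strands and were not found, so no base is in capitals. Of 32851 promoter windows of this length, 14.02% held AGGTCA, 11.8% held AGTTCA and 0.164% held TTGCGCAA. The absence of a match says only that these letters are not in this window.

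Scara5 kept its direction in every setting, but at day 5 it was barely present. Under corn oil at day 60 the wild type libraries had 1.69, 0.672 and 0.644 FPKM and the hCAR-TG libraries had 5.69, 5.00 and 5.07 FPKM. These are the values it was chosen on, with means of 1.002 ± 0.596 and 5.25 ± 0.379 FPKM (SD, n = 3) and a ratio of 5.24. Under ligand at day 60 the values were 0.0813, 0.0804 and 0.412 FPKM in wild type and 1.47, 3.59 and 1.19 FPKM in hCAR-TG livers. The groups did not overlap, although both were lower than under corn oil. The difference was 1.30 ± 0.20 (SE; limma adjusted p = 2.64e-05), 10.9-fold by the means. The gene was admitted to the test through these same hCAR-TG libraries, so this value is read as a description. The difference also passed when no minimum was set.

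At day 5, Scara5 stayed below 0.35 FPKM in all 12 libraries. Under corn oil it was at 0.141, 0.0451 and 0.0261 FPKM in wild type and 0.348, 0.253 and 0.201 FPKM in hCAR-TG livers, and under ligand at 0.0371, 0.0378 and 0.0252 FPKM against 0.344, 0.150 and 0.227 FPKM. The hCAR-TG libraries were the higher ones in both settings without overlap, but the deposited intervals of the corn oil groups did overlap, reaching 0.205 FPKM in wild type and down to 0.127 FPKM in hCAR-TG livers. Neither difference passed the test, at 0.24 ± 0.20 under corn oil (SE; limma adjusted p = 0.513) and 0.26 ± 0.20 under ligand (SE; limma adjusted p = 0.314). A pseudocount of 1 FPKM compresses differences at such levels. With a pseudocount of 0.1 the ligand difference was 1.31 and passed, and it also passed when only the compared libraries were fitted, at 0.26.

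Cebpe went the opposite way in adults and did not separate the genotypes in neonates. Wild type livers had 2.41, 3.26 and 3.35 FPKM under corn oil at day 60. In hCAR-TG livers it was listed at 0.0258, 0.0215 and 0 FPKM, with no deposited interval reaching above 0.0774 FPKM, and this contrast is the one that chose the gene. Under ligand at day 60, wild type livers had 1.03, 1.23 and 0.847 FPKM, whereas hCAR-TG livers were listed at 0, 0.0248 and 0.0436 FPKM. The difference under ligand was -0.99 ± 0.20 (SE; limma adjusted p = 0.000537), with all hCAR-TG libraries below all wild type libraries.

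At day 5, Cebpe RNA was present in both genotypes. Under corn oil the wild type libraries had 0.765, 1.38 and 2.30 FPKM and the hCAR-TG libraries had 1.61, 2.43 and 3.74 FPKM. These groups overlapped, and the difference of 0.54 ± 0.20 (SE; limma adjusted p = 0.105) did not pass. It did pass, at 0.77 without the third wild type library and at 0.75 without the first hCAR-TG library, and it passed at 0.53 with array weights. Under ligand the values were 1.76, 1.56 and 1.33 FPKM against 2.14, 1.38 and 0.932 FPKM, with overlap and a difference of -0.07 ± 0.20 (SE; limma adjusted p = 0.822).

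**Figure D1:**
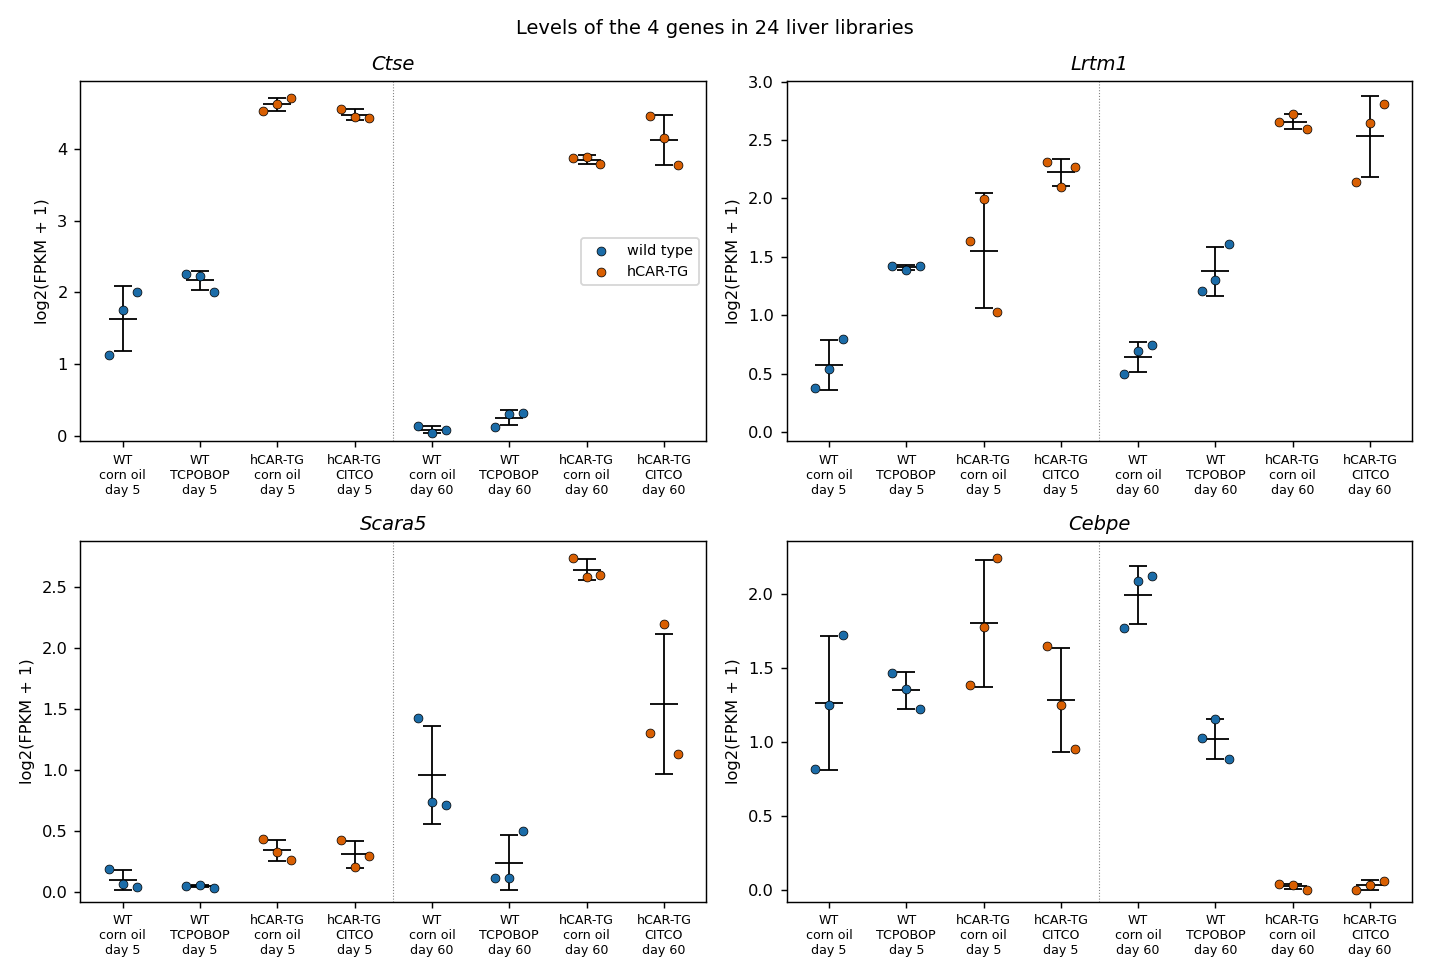
Levels of Ctse, Lrtm1, Scara5 and Cebpe as log2(FPKM + 1) in 24 liver libraries, 1 panel per gene, with 3 points per group (wild type in blue, hCAR-TG in orange) and bars for the mean ± SD. Ctse is high in all 12 hCAR-TG libraries, Scara5 is near 0 in all day 5 libraries, and Cebpe is near 0 only in the 6 hCAR-TG libraries of day 60.

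Read against the background of all tested genes, the counts of called members differ in weight between settings. In neonates under corn oil, where 10.6% of tested genes were called in either direction, 2 of the 4 genes were called, Ctse and Lrtm1. Under ligand all 4 were called at day 60 and 2 at day 5, but 43.7% and 42.8% of all tested genes were called there, so those shares say little about the members. Over the 3 settings that the choice did not use, 54 genes (0.440%) were called higher in hCAR-TG livers each time, Ctse and Lrtm1 among them. Groups that did not overlap, with hCAR-TG higher in all of these settings, were found for 135 genes (1.10%), including Ctse, Lrtm1 and Scara5. In single settings the groups of 3, 4 and 3 of the 4 genes did not overlap (corn oil at day 5, then ligand at days 60 and 5), beside 21.7%, 60.1% and 59.6% of all tested genes. For the contrast used in the choice the background was 4.90% of tested genes called and 24.9% without overlap, from which nothing is read here.

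The mean genotype difference over those 3 settings was 3.06 ± 0.09 for Ctse, 0.98 ± 0.11 for Lrtm1 and 0.60 ± 0.12 for Scara5 (SE; limma adjusted p = 2.57e-15, 3.8e-07 and 0.000338). For Cebpe it was -0.17 ± 0.12 (SE; limma adjusted p = 0.255). Of all tested genes 43.3% were called in this mean, against 3 of the 4 genes. Scara5 was admitted to this test mostly through hCAR-TG libraries of day 60, and those under ligand are part of the mean. Its values in this mean and in the permutation test below are therefore read as a description only. An exact permutation test, two-sided, with genotype labels exchanged within each setting gave p = 0.00025 for Ctse, Lrtm1 and Scara5, the smallest that 8000 relabelings can give. For Cebpe, which differed at day 60 and not at day 5, the same exact permutation test gave p = 0.427.

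**Figure D2:**
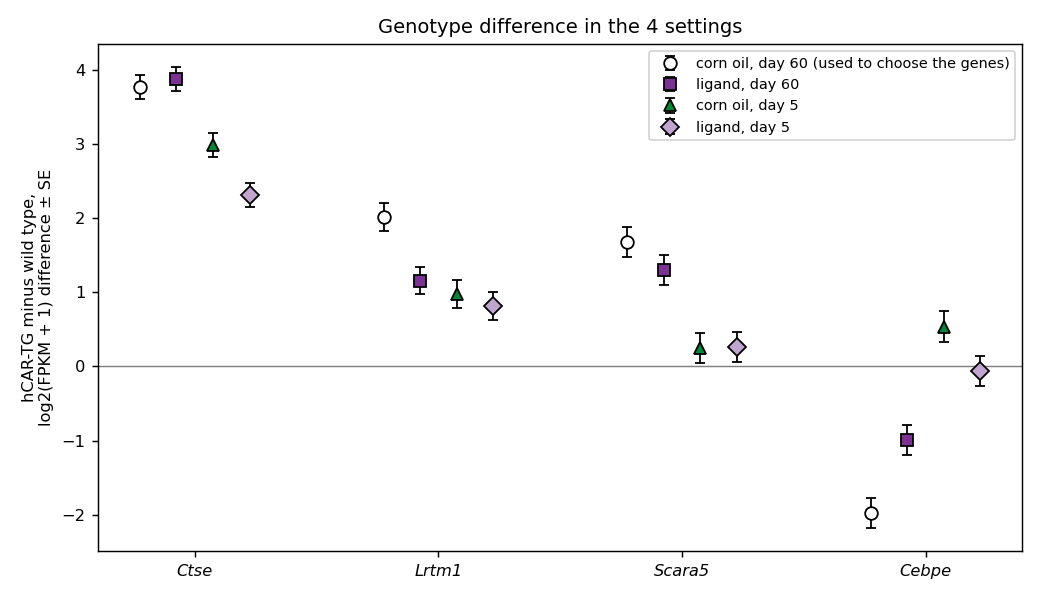
Genotype difference (hCAR-TG minus wild type) in log2(FPKM + 1) with its SE for the 4 genes in the 4 settings, with the setting used to choose the genes as open circles. Ctse and Lrtm1 lie above 0 in all settings, Scara5 is within 2 SE of 0 at day 5, and Cebpe lies more than 2 SE below 0 at day 60 only.

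The size of the genotype difference changed with age for Ctse and Cebpe when the ligand groups were compared, a contrast in which 31.8% of all tested genes were called. The difference of Ctse was larger at day 60 than at day 5 by 1.56 ± 0.23 (SE; limma adjusted p = 3.32e-05). The difference of Scara5, a gene tested mostly because of its level in hCAR-TG livers of day 60, changed by 1.04 ± 0.29 (SE), given as a description. That of Cebpe shifted downwards, at -0.92 ± 0.29 (SE; limma adjusted p = 0.0198), and it missed the threshold without the second wild type TCPOBOP library of day 60, at -0.86, or without the first hCAR-TG CITCO library of day 5, at -0.74. With the number that closes the read file names as a factor, the change was 0.43 for Scara5, -0.15 for Cebpe and 1.96 for Ctse. At day 5 that adjustment rests on 1 hCAR-TG corn oil library and at day 60 on 1 library of each genotype. No call is therefore read from it. By the ratio of their means, the genotypes differed in Scara5 10.9-fold at day 60 and 7.22-fold at day 5, where its levels lie below the pseudocount of 1 FPKM and the log2(FPKM + 1) scale understates a fold. For Lrtm1 the change was 0.34 ± 0.26 (SE; limma adjusted p = 0.337).

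These age changes came from different sides for the different genes. Ctse fell with age in wild type livers under TCPOBOP, by 1.91 on the log2 scale (SE 0.16; limma adjusted p = 2.66e-09), whereas in hCAR-TG livers under CITCO the change was -0.35 ± 0.16 (SE; limma adjusted p = 0.0604). Scara5, which was tested only because of its level at day 60, differed with age by 1.24 ± 0.20 in hCAR-TG and 0.19 ± 0.20 in wild type livers (SE), given as a description. Cebpe fell with age in hCAR-TG livers by 1.25 on that scale (SE 0.20; limma adjusted p = 1.76e-05), against -0.33 ± 0.20 in wild type livers (SE; limma adjusted p = 0.171). Of all tested genes, 64.1% were called with age in wild type and 72.4% in hCAR-TG livers, and the median change of all genes was -0.09 and -0.22, so the calls of Ctse and Cebpe do not stand out.

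In the corn oil groups, described without a test, Ctse differed with age by -1.55 ± 0.16 (SE) in wild type and -0.77 ± 0.16 in hCAR-TG livers. Scara5 differed by 0.86 ± 0.20 and 2.30 ± 0.20. Cebpe went in opposite directions, at 0.73 ± 0.20 in wild type and -1.78 ± 0.20 in hCAR-TG livers, and Lrtm1 was at 0.07 ± 0.19 and 1.10 ± 0.19. The median age change of all genes was -0.14 and -0.17 in these groups.

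Whether the genotype difference depended on the ligand was tested at day 5, where 33.7% of tested genes were called. For Ctse it was smaller under ligand than under corn oil, at -0.68 ± 0.23 (SE; limma adjusted p = 0.0299). That call was lost without the first wild type corn oil library, at -0.43, without the first or second wild type TCPOBOP library, at -0.63 and -0.65, without the third hCAR-TG corn oil library, at -0.63, and without the second CITCO library, at -0.66, or the third, at -0.65. For Lrtm1, Scara5 and Cebpe the change was -0.17, 0.02 and -0.60 (limma adjusted p = 0.652, 0.970 and 0.113).

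Between ligand and corn oil at day 5, 2 of the genes differed. Lrtm1 was higher with TCPOBOP in wild type livers by 0.84 ± 0.19 and Ctse by 0.54 ± 0.16 (SE; limma adjusted p = 0.00136 and 0.0144). In that comparison 35.9% of tested genes were called. Its groups shared none of the numbers that close the read file names, so ligand and number cannot be told apart there. The highest corn oil library and the lowest TCPOBOP library were both at 3.02 FPKM of Ctse. With CITCO, Lrtm1 was higher in hCAR-TG livers by 0.67 ± 0.19 (SE; limma adjusted p = 0.0181), where 17.1% of tested genes were called. Ctse changed by -0.14 ± 0.16 there (SE; limma adjusted p = 0.572). Only the third corn oil library shared its number with the CITCO group. Scara5 changed by -0.05 and -0.03 and Cebpe by 0.08 and -0.52 under the 2 ligands (limma adjusted p = 0.881, 0.933, 0.792 and 0.0841).

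At day 60, where the corn oil groups were used in the choice, the ligand values are a description. Scara5 was lower with ligand in both genotypes without overlap, at -0.72 ± 0.20 in wild type and -1.10 ± 0.20 in hCAR-TG livers (SE). Cebpe was lower with TCPOBOP, at -0.97 ± 0.20, and stayed near 0 FPKM in hCAR-TG livers. Lrtm1 was higher with TCPOBOP, at 0.73 ± 0.19, with the hCAR-TG groups overlapping. Ctse groups overlapped between corn oil and ligand in both genotypes.

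Ordered by mean FPKM, the 4 hCAR-TG groups headed the list for Ctse (23.6 under corn oil and 21.3 under CITCO at day 5, then 16.8 under CITCO and 13.4 under corn oil at day 60), and each overlapped its neighbour in that order. The wild type groups followed at 3.50 and 2.19 FPKM for TCPOBOP and corn oil at day 5 and at 0.192 and 0.0603 FPKM at day 60, with overlap in the last pair only. For Lrtm1 the order was 5.31 and 4.89 FPKM in hCAR-TG livers of day 60 under corn oil and CITCO, then 3.69 and 2.05 FPKM under CITCO and corn oil at day 5. The wild type TCPOBOP groups came next at 1.66 and 1.61 FPKM, and the wild type corn oil groups last at 0.569 and 0.498 FPKM. Neighbours in the order of Lrtm1 overlapped except at the steps from 3.69 to 2.05 and from 1.61 to 0.569 FPKM.

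For Scara5 the hCAR-TG corn oil group of day 60 stood alone at 5.25 FPKM. It was followed by CITCO at day 60 with 2.08 FPKM and wild type corn oil at day 60 with 1.002 FPKM, which overlapped, and by 5 groups at 0.267 FPKM or less, each overlapping its neighbour. For Cebpe the wild type corn oil group of day 60 had the highest mean, 3.01 ± 0.520 FPKM (SD, n = 3). It overlapped the next group, hCAR-TG corn oil at day 5 with 2.59 ± 1.08 FPKM. The following 4 groups lay between 1.55 and 1.04 FPKM with overlap, and only the hCAR-TG groups of day 60 were set apart, below 0.05 FPKM.

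Markers of other cell types moved with genotype in part of the settings. Erythroid markers, which matter for Ctse because red cell precursors make cathepsin E, were called higher in hCAR-TG livers for 14 of 15 genes under corn oil at day 5, and their summed level was 13905 to 17262 FPKM against 5782 to 8134 FPKM. Their part in the day 5 difference of Ctse was not tested. At day 60 under corn oil 0 of 15 were called, and the sums were 1375 to 1834 FPKM in hCAR-TG and 1842 to 2450 FPKM in wild type livers. Rhag was at 0 in every library of both groups. Ctse was at 13.4 FPKM against 0.0603 FPKM in that setting, the one used in the choice, and the part of these cells in it was not tested. Under ligand 12 of 15 were called higher at day 5, with sums of 9708 to 11074 FPKM against 6779 to 8366 FPKM, and at day 60 4 of 15 were called, with sums of 1568 to 1811 FPKM against 892 to 1484 FPKM. In that last setting too the hCAR-TG sums lay above the wild type ones without overlap, and their part in the difference of Ctse under ligand was not tested. Stomach markers, 12 genes in the files, summed to at most 4.73 FPKM in every hCAR-TG library, and Gkn2 was at 0 throughout. Their part in the level of Ctse was not tested. Intestine markers moved with genotype under corn oil at day 5, with 10 of 14 called higher and 0 lower in hCAR-TG livers and sums of 123 to 248 FPKM against 83.1 to 102 FPKM, and their part in the differences of that setting was not tested.

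Neutrophil markers bear on Cebpe. At day 5 under corn oil, 12 of 13 were called higher in hCAR-TG livers, with sums of 1150 to 1503 FPKM against 316 to 808 FPKM, in the setting where Cebpe was at 0.54 and did not pass. Under ligand at day 5, 6 of 13 were called higher and the sums were 579 to 1110 FPKM against 468 to 523 FPKM. At day 60 under corn oil the sums were 20.6 to 26.5 FPKM in hCAR-TG and 7.21 to 9.98 FPKM in wild type livers, and 3 of 13 (S100a8, S100a9 and Csf3r) were called higher, while Cebpe was near 0 there. Under ligand at day 60 the sums overlapped, at 14.4 to 26.7 FPKM against 9.27 to 15.7 FPKM, with 2 of 13 called higher. The part of these cells in the values of Cebpe was not tested. Fibroblast and stellate cell markers, which bear on Scara5, overlapped between genotypes at day 60, with 157 to 176 FPKM in wild type and 163 to 282 FPKM in hCAR-TG livers under corn oil and 130 to 139 FPKM against 132 to 165 FPKM under ligand. Of 21 tested, 1 was higher and 0 lower under corn oil at day 60, and 0 higher and 1 lower at day 5. Under ligand 2 were higher and 1 lower at day 60, and 8 higher and 1 lower at day 5. The part of these cells in the differences of Scara5 was not tested. Without the 4 day 5 libraries that held most pancreas or intestine transcripts, a setting added after the data were seen, the mean difference of Cebpe was -0.31 and passed the threshold. The calls for Ctse, Lrtm1 and Scara5 in that mean were the same with and without those libraries.

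**Figure D3:**
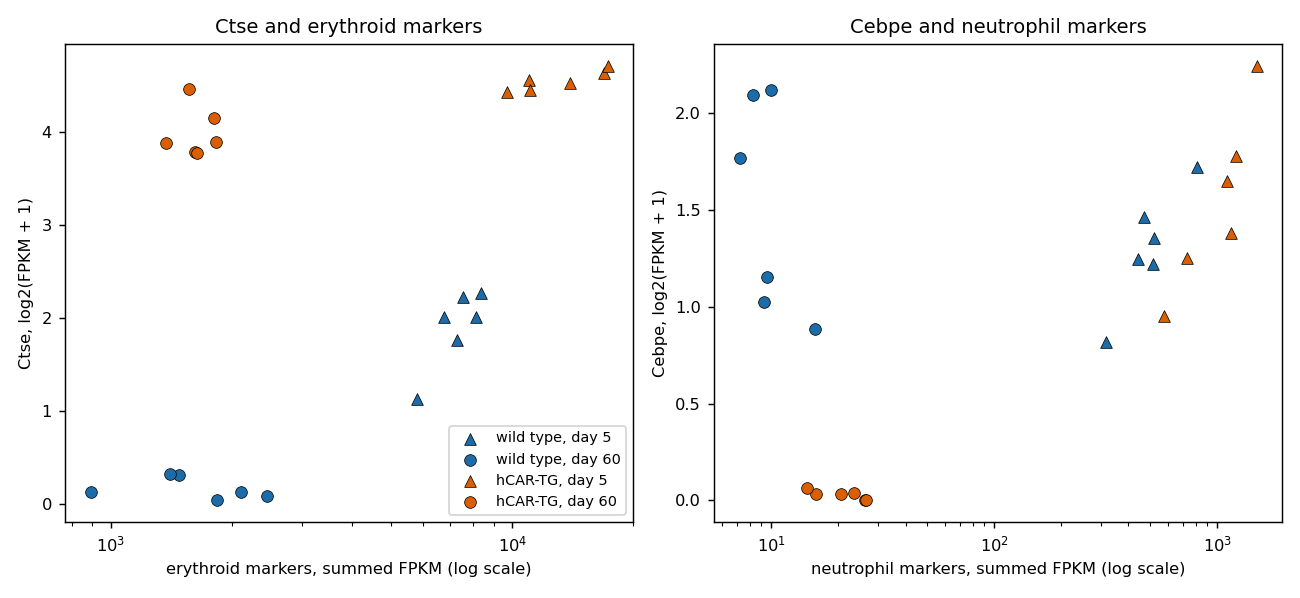
Left, Ctse as log2(FPKM + 1) against the summed FPKM of erythroid markers (log axis), and right, Cebpe against the summed FPKM of neutrophil markers (log axis), 1 point per library, with triangles for day 5 and circles for day 60. At day 60 the genotypes are far apart in Ctse. Erythroid sums of that age are 1375 to 1834 FPKM in hCAR-TG and 1842 to 2450 FPKM in wild type libraries under corn oil. Under ligand they are 1568 to 1811 FPKM and 892 to 1484 FPKM. The hCAR-TG libraries of that age, with neutrophil sums at or above most wild type ones of day 60, have Cebpe near 0. The part of these cells in either gene was not tested.

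The families and pathways of the 4 genes are given by their counts. Of 13 other cathepsin genes tested, 0 were called in corn oil at day 60 and 1 at day 5, and under ligand 3 rose and 2 fell at day 60 and 1 rose and 4 fell at day 5. Their median difference was -0.03, 0.03, 0.04 and -0.19 in these settings, against -0.00, 0.03, -0.07 and 0.00 for all tested genes. Ctsd, the lysosomal aspartic protease nearest to cathepsin E in kind, was at 0.00 and 0.09 under corn oil at days 60 and 5 and lower in hCAR-TG livers under ligand, at -0.40 and -0.42. Among 6 other aspartic protease genes only Ren1, encoding renin, was called higher in hCAR-TG livers in all settings, at 1.08 under corn oil at day 60, 0.90 at day 5, 0.57 under ligand at day 60 and 2.16 at day 5. Some mouse strains carry a second, nearly identical renin gene whose reads could be counted here, so the Ren1 values are uncertain.

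Of 5 other C/EBP family genes, 0 were called under corn oil at either age, and under ligand 1 was higher at day 60 and 3 at day 5, with 0 lower. Cebpa, the main hepatocyte member, was higher in hCAR-TG livers under ligand at 0.52 and 0.76 for days 60 and 5, while Cebpb and Cebpd were not called in any setting. Of 18 granulocyte genes that depend on C/EBP epsilon, 15 were higher and 0 lower in hCAR-TG livers under corn oil at day 5, and 4 were higher and 0 lower at day 60, where Cebpe was near 0. Under ligand 7 were higher and 3 lower at day 5, and 2 were higher and 0 lower at day 60. Their median difference under corn oil was 1.31 at day 5 and 0.03 at day 60, and under ligand it was 0.51 and 0.03.

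Of 4 other class A scavenger receptor genes, Marco, a macrophage receptor, was called under corn oil at day 5 with 1.75, and Colec12 was lower under ligand at -0.40 and -0.43. Scara3 and Msr1 were not called in any setting. Of 22 other iron genes, Steap3, the ferrireductase of the transferrin cycle, was higher in hCAR-TG livers in all 4 settings, at 0.58, 0.44, 0.76 and 0.82 (corn oil at days 60 and 5, then ligand at days 60 and 5). Of the iron genes 1 was higher and 0 lower under corn oil at day 60, and 6 were higher and 0 lower at day 5. Under ligand they were split, 6 higher and 6 lower at day 60 and 3 higher and 7 lower at day 5. Of 6 other leucine-rich repeat transmembrane genes tested, 0 were higher under corn oil at either age and 1, Lrit2, was lower at day 60, at -0.46. Of these 6 genes, 2 and 3 were higher and 0 lower under ligand at days 60 and 5, Lrit1 in both.

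The 4 genes lie on only 2 chromosomes. By the coordinates of the files (mm10), Ctse is a gene of 10 exons on the plus strand of chromosome 1 at 131638314 to 131675507. The other 3 are on chromosome 14, Lrtm1 at 29018208 to 29033642 on the plus strand with 3 exons, Cebpe at 54710363 to 54712174 on the minus strand with 2 exons, and Scara5 at 65666403 to 65764826 on the plus strand with 9 exons. Lrtm1 lies within Cacna2d3, which is on the opposite strand. The library kit keeps strand, whether counting used it is not given, and Cacna2d3 did not exceed 0.0158 FPKM in any library. Chromosome 14 holds 428 of the 12282 tested genes. Nr1i3, which encodes mouse CAR, is on chromosome 1, 39.5 Mb from Ctse.

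Genes called in the same direction in all 4 settings were gathered on the same chromosomes. There were 34 of them (0.277% of tested genes), 15 higher and 19 lower in hCAR-TG livers, Ctse and Lrtm1 among those higher. A call in the setting used in the choice is part of this count, so the presence of these members is no result. Of these genes 12 were on chromosome 1, 1.72% of its tested genes, and 14 on chromosome 14, 3.27%, against 8 genes or 0.0717% on all other chromosomes. No test of this distribution was made, and the counts are a description, since the setting used in the choice is one of the 4. Of the 12 on chromosome 1, 6 started within 12 Mb of Ctse, namely Steap3, Pm20d1, Ren1, Etnk2, Ddx59 and Ctse itself, and the other 6 lay within 2 Mb of Nr1i3. Of the 14 on chromosome 14, 12 started between Lrtm1 and Scara5, 5 of them within 2 Mb of Cebpe. The share of tested genes that lie in these stretches was not counted, so nothing is read from the counts within them.

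By their smallest difference over the 4 settings, a measure that includes the setting of the choice, the largest on the higher side were Ctse, Pm20d1, Lrtm1, Psmc3ip, Klhl33 and Ren1, and those on the lower side were Ear2, Slco1a4, Dio1, Entpd4, Gch1 and Dusp12. Pm20d1, a secreted enzyme that makes N-acyl amino acids, differed by 1.02, 1.19, 1.10 and 1.01 (corn oil at days 60 and 5, then ligand at days 60 and 5), which is nearly the same in each setting. Ear2, an eosinophil-associated ribonuclease with closely related copies that could share its reads, was at 35.3 FPKM in wild type and 11.1 FPKM in hCAR-TG livers at day 5 under corn oil. With a minimum of 5 FPKM the count was 21, of which 17 were on these chromosomes, and with array weights it was 92 and 38. Ctse and Lrtm1 were among them under every alternative run for this count, which is no result either, since the setting of the choice is part of it. The read file number was not used as a factor for this count.

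**Figure D4:**
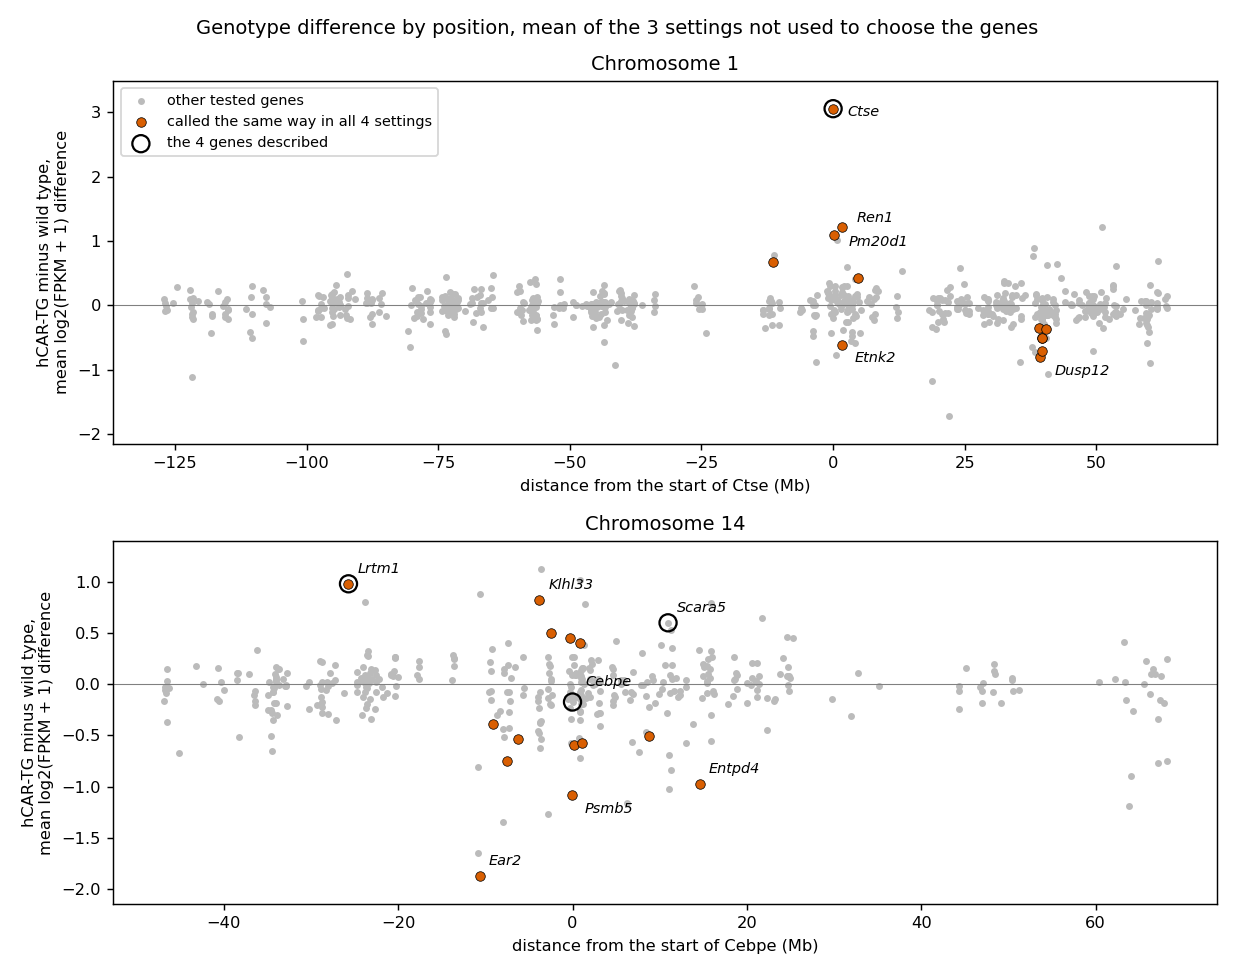
Mean genotype difference over the 3 settings not used in the choice, in log2(FPKM + 1), for all tested genes of chromosome 1 (top) and chromosome 14 (bottom), against distance in Mb from the start of Ctse or Cebpe. Orange points are the 12 and 14 genes called the same way in all 4 settings, and open rings mark the 4 genes described.

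Genes near the members are given by the mean genotype difference over the 3 settings. Within 1 Mb of Ctse 25 genes were tested, and 11 were higher and 4 lower in hCAR-TG livers, against 43.3% of all tested genes called in that mean. Those with the lowest adjusted p were Pm20d1 at 1.10, Tmcc2 at 1.02, Cdk18 at -0.77 and Ikbke at -0.43. The mean hides opposite signs for Ikbke, which was higher in hCAR-TG livers under corn oil (0.41 at day 60 and 0.95 at day 5) and lower under ligand (-1.15 and -1.10). Cdk18 was at 0.02 and 0.11 under corn oil and was lower under ligand, at -1.52 and -0.91. Within 1 Mb of Lrtm1 only 6 genes were tested, of which Erc2 was called, at -0.35. Within 1 Mb of Scara5, 5 of 17 were higher and 4 lower, led by Clu at -0.84, Pbk at -1.02, Gulo at 0.53 and Hmbox1 at 0.38. Within 1 Mb of Cebpe, 8 of 39 were higher and 17 lower, led by Psmb5 at -1.08, Ppp1r3e at -0.59, Dhrs4 at -0.53 and Pck2 at -0.72. Slc7a8, the neighbour nearest to Cebpe among those examined, was at -0.09 and -0.30 at day 60 under corn oil and ligand, where Cebpe was at -1.97 and -0.99.

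Across the 24 libraries, which share the 8 groups and so do not count as independent points, Ctse was most like Ddx59, 1700123O20Rik and Rab2b (Pearson r of log2(FPKM + 1) 0.918, 0.903 and 0.884). Lrtm1 was most like Ddx59, Dusp14 and Asap2 (r = 0.792, 0.789 and 0.782), Scara5 like Dct, Lad1 and Capn8 (r = 0.960, 0.923 and 0.918), and Cebpe like Fbf1, Cyp2c68 and St3gal5 (r = 0.866, 0.767 and 0.747). After the mean of each age and treatment setting was subtracted, the closest gene was Pm20d1 for Ctse (r = 0.974), Ctse for Lrtm1 (r = 0.917), Dct for Scara5 (r = 0.925) and C730036E19Rik for Cebpe (r = 0.901). Dct was itself low, at 2.07 FPKM in hCAR-TG and 0.814 FPKM in wild type livers under corn oil at day 60. C730036E19Rik was at 12.1 FPKM in wild type and 0.925 FPKM in hCAR-TG livers in that setting. Under corn oil at day 5 it was at 0.0402 and 0.0095 FPKM, where Cebpe was at 1.48 and 2.59 FPKM. The subtraction leaves the genotype difference in place, and the libraries used in the choice are among the 24. Members chosen by that difference are thus bound to resemble genes that share it, and these correlations are a description.

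The read files carry a closing number from 1 to 5 whose meaning is not given, and it differs between the genotypes in most settings. For corn oil at either age, and for ligand at day 5, no number was shared by the genotypes, so number and genotype cannot be told apart there. Nor was any number shared between corn oil and TCPOBOP in wild type livers of day 5. The same holds between the ages within each genotype and treatment, so number and age cannot be told apart either. The only number shared within a setting was 2 under ligand at day 60, with the third wild type and the first hCAR-TG library. In that pair Ctse was at 0.246 and 21.0 FPKM, Lrtm1 at 2.06 and 3.42 FPKM, Scara5 at 0.412 and 1.47 FPKM and Cebpe at 0.847 and 0 FPKM, each in the direction of its groups. With the number as a factor the ligand differences at day 60 rest on that pair. They were 4.14 for Ctse, 0.53 for Lrtm1, 0.81 for Scara5 and -0.89 for Cebpe, and no call is read from them. At day 5 under ligand the adjustment rests on the third hCAR-TG corn oil library of day 5, the only one whose number differs within a day 5 group. That library also held the most intestine transcripts, at 248 FPKM. The adjusted differences were 2.18 for Ctse, 1.61 for Lrtm1, 0.37 for Scara5 and -0.73 for Cebpe, and again no call is read from them.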

How the data were processed

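Polyadenylated liver RNA was sequenced in 24 libraries, in 8 groups by genotype, age and treatment. RNA Bee extracts were turned into stranded TruSeq libraries, per the labels' protocols. The authors deposited FPKM per gene with interval bounds, in 1 table per library, per the file headers. The build was mm10 per the submitters' processing notes; aligner, quantifier and annotation are not given in the sources used here. Each table held 24885 entries with 24342 symbols; entries of the 281 symbols at several loci were summed, 27 date-like entries were kept apart by locus and 5 genes with a failed estimate were left out. Read depth is unknown, so no counting interval is given.

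Values of log2(FPKM + 1) were fitted in R 4.3.3 with limma 3.58.1 (eBayes with trend and robust) in 1 model of 8 groups (16 residual degrees of freedom). A gene was called where its two-sided p, after Benjamini-Hochberg adjustment over the 12282 genes tested, was under 0.05. The fit was first tried on simulated data. A fold is the ratio of mean FPKM; a log2 difference is hCAR-TG minus wild type unless stated, and is smaller than the log2 ratio for low genes. The 4 members and the 17 gene lists were chosen with earlier results of these data known.

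Named genes were the members; up to 4 genes per list and per neighbourhood of 1 Mb with the lowest adjusted p in the mean genotype contrast, plus relatives of a member; the 6 largest genes each way called in all settings, by their smallest difference; and the 3 most like each member. Genes beyond these were named to account for small counts. The alternatives tried were a pseudocount of 0.1, rescaling of the libraries by median ratios, a minimum of 5 FPKM or none, array weights, no trend, the replicate number as a block, the read file number as a factor, the compared libraries alone and each library left out. They were run for the genotype differences and their changes with age and ligand. The ligand responses and the age differences within a genotype were fitted in the main model only.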

Additional observations from a re-analysis of the deposited data

Results flagged for a closer look

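In 4 cases the genotype difference itself differed between 2 conditions by a limma test of that difference. Under ligand, day 60 minus day 5, these were Ctse at 1.56, Scara5 at 1.04 and Cebpe at -0.92 on the log2(FPKM + 1) scale. Scara5 was admitted to the test mostly through hCAR-TG libraries of day 60, so its value is a description. With the read file number as a factor the values were 1.96 for Ctse, 0.43 for Scara5 and -0.15 for Cebpe. That adjustment rests at day 5 on 1 hCAR-TG corn oil library and at day 60 on 1 library of each genotype. No call is therefore read from it. At day 5, ligand minus corn oil, it was Ctse at -0.68, a call lost in 6 of 12 fits that left out 1 library and in 3 other alternatives. The comparison between ages holds TCPOBOP in wild type and CITCO in hCAR-TG livers, so a different response to each compound with age and a different effect of genotype cannot be told apart.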

How the results depend on the processing

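The calls and directions of Ctse in each genotype setting, of Lrtm1 and Scara5 at day 60 under ligand and of all 3 in the mean of the 3 settings were the same under every alternative that left the read file number out. With that number as a factor under ligand at day 60, 3002 genes were called in place of 5370, and Scara5 (0.81) and Cebpe (-0.89) missed the threshold; in the change of the difference with age Lrtm1 was reversed at -1.08 and Scara5 (0.43) and Cebpe (-0.15) missed it. Under corn oil at day 5, 1297 genes were called, against 817 with a minimum of 5 FPKM, 4571 with array weights and 191 in the compared libraries alone, where Lrtm1 (0.98) missed the threshold; with array weights Cebpe (0.53) passed it. Cebpe is below 5 FPKM throughout and has no value under that minimum. Array weights gave 8217 calls under ligand at day 5, 6815 for its change with age and 6352 for its change with ligand, the last against 4142, and there Lrtm1 (-0.64) and Cebpe (-0.57) passed and Scara5 was reversed (-0.0207). With a pseudocount of 0.1, Scara5 under ligand at day 5 (1.31) and Cebpe in the mean (-0.84) passed, and the change of Ctse with ligand (-0.89) missed the threshold; the compared libraries alone made Scara5 under ligand at day 5 pass (0.26) and the change of Ctse miss it (-0.68). Without the 4 libraries with most pancreas or intestine transcripts, Cebpe passed in the mean (-0.31) and missed in the change with age (-0.75), Ctse missed in the change with ligand (-0.71), and Scara5 was reversed there (-0.0596). Genes called in all 4 settings numbered 21 with a minimum of 5 FPKM (17 on chromosomes 1 and 14) and 92 with array weights (38). Causes were not tested.

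Leaving out 1 library at a time gave 801 to 1745 calls under corn oil at day 5 (801 without the first and also without the second wild type library) and 29 to 40 genes called in all 4 settings, 21 to 27 of them on chromosomes 1 and 14. Cebpe ranged from 0.32 to 0.77 under corn oil at day 5, from -0.25 to 0.10 under ligand at day 5 (reversed without the third CITCO library) and from -1.09 to -0.74 in the change with age. In the change with ligand, Ctse ranged from -0.87 to -0.43, Lrtm1 from -0.43 to 0.0558 (reversed without the second hCAR-TG corn oil library), Scara5 from -0.0414 to 0.0709 (reversed at -0.0288, -0.0202 and -0.0414 without the first wild type corn oil, the third hCAR-TG corn oil and the first CITCO library) and Cebpe from -0.83 to -0.38 (called at -0.83, -0.81 and -0.79 without the third wild type corn oil, the first hCAR-TG corn oil and the first CITCO library).

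Replicate numbers are shared by the groups, but same-numbered libraries did not deviate together (correlations of deviations between -0.185 and 0.266), so they share only a number. With the replicate number as a block, 1219 genes were called under corn oil at day 5, 5323 and 5205 under ligand at days 60 and 5, and 33 in all 4 settings (26 on chromosomes 1 and 14). In the genotype differences tested, their mean and their changes with age and ligand, no call of Ctse, Lrtm1, Scara5 or Cebpe changed with the block. The ligand responses at day 5 and the age differences within a genotype were not refitted with it.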
